A study of Mus musculus with 8 samples.

Results

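Precursor messenger RNA is spliced by small nuclear ribonucleoproteins (snRNPs) and by proteins that guide them, and 74 genes of that machinery were measured here in CD4+ T cells of the neonatal mouse liver. They were the rows of the count table whose symbol starts with Srsf, Hnrnp, Sf3a or Sf3b, Snrp, Snrnp, U2af or Prpf followed by a family letter or number, which took 77 of 52997 symbols. Left out were 2 processed-pseudogene symbols ending in -ps and Prpf40b, whose 43 counts over all 8 libraries were under the minimum of 50. The members just inside that minimum were Snrnp35 with 100 counts, Srsf12 with 106 and Snrpert with 147. All 74 also passed the filter on low counts and were tested. They comprise 11 genes of serine/arginine-rich (SR) proteins, 20 hnRNP genes, 3 of the U1 snRNP, 14 of the U2 snRNP and U2AF, 7 of the Sm core, 9 of the U5 snRNP and tri-snRNP, 3 of the minor spliceosome and 6 other Prp genes. Snrpert, annotated as a processed pseudogene related to Snrpe, stands alone.

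In splicing, the U1 snRNP binds the start of an intron and U2AF and the U2 snRNP bind its end and branch point, after which the tri-snRNP of U4, U6 and U5 joins and the complex is rearranged for catalysis. The Sm proteins form the ring around the RNA of U1, U2, U4 and U5, while a ring of related LSm proteins binds U6 RNA. A rarer minor spliceosome built on U11 and U12 serves a separate class of introns. SR proteins mostly promote and hnRNP proteins often repress the use of nearby exons, and in activated T cells such choices are known to change the isoforms of CD45 and other surface proteins. The counts here are per gene, so they give the amount of each factor's transcript and nothing on isoform use.

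The 4 groups were PD-1+ and PD-1- cells of 5-day-old mice and PD-1+ and PD-1- cells of 10-day-old mice, with 2 libraries each. Every group came from the liver of Aire-deficient C57BL/6 mice carrying a Foxp3-GFP reporter, and 1000 live CD45+ TCRb+ CD4+ cells without the reporter were double-sorted for each library. PD-1 is the inhibitory receptor encoded by Pdcd1, and Aire drives expression of self-antigens in the thymus. Aire-sufficient animals were not analysed here, so no value below bears on Aire itself. The labels do not state which libraries came from separate animals. At 5 days the 2 libraries of each group differed in sex, so they were not from one mouse. At 10 days all 4 were female and no value shows whether the 2 of a group came from separate mice, so the 10-day part of the spread behind the p-values may be technical.

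Libraries held 1473216 to 3019551 counts, of which the 74 genes took 1.25 to 1.46%. Pdcd1 had 564 to 1953 counts in PD-1+ libraries, against 1 to 5 counts in PD-1- libraries, and Cd4 had 1101 to 4279 counts in every library. Foxp3 had 0 to 2 counts in PD-1+ libraries, against 10 to 32 counts in PD-1- libraries. It was called lower in PD-1+ cells (-4.04 ± 0.72, edgeR adjusted p = 0.000404), although cells with the reporter were sorted out. Of the 6 genes in the list of the sorted cells 1, Pdcd1, was called higher and 1, Foxp3, lower. Both 5-day libraries numbered 3 were male by Xist and Y-linked counts and the other 6 were female. Proliferation genes, from Mki67 to the replication helicase genes Mcm2 to Mcm7, moved with the groups: 14 of 15 were called higher and 0 lower in PD-1+ cells, with a median log2 fold change of 1.48. Their summed level was 8690 to 8881 CPM in 5-day PD-1+ and 2650 to 3706 CPM in 5-day PD-1- libraries, and 5020.3 to 5388 CPM in 10-day PD-1+ and 2177 to 2546 CPM in 10-day PD-1- libraries. The hepatocyte list summed to 25.8 to 77.2 CPM in PD-1+ libraries and to 9.65 to 19.4 CPM in PD-1- libraries, with 3 of the 4 that were tested called higher in PD-1+ cells. The B-cell list, mostly Ighm, summed to 289 to 351 CPM in PD-1+ libraries and to 543 to 636 CPM in PD-1- libraries, and the CD8 list to 6.18 to 27.4 CPM in PD-1+ libraries and to 27.5 to 47.6 CPM in PD-1- libraries. Of the CD8 genes Cd8b1 was called lower and Cd8a passed in neither direction. The dendritic list summed to 22.4 to 66.2 CPM in PD-1+ libraries and to 3.41 to 15.5 CPM in PD-1- libraries, with Xcr1 called higher (5.04 ± 0.41, edgeR adjusted p = 2.13e-07) and Itgax not called. The endothelial and stromal list, nearly all Pecam1, summed to 100.8 to 144 CPM in PD-1+ libraries and to 296 to 378 CPM in PD-1- libraries, and Pecam1 was called lower (-1.38 ± 0.14, edgeR adjusted p = 2.94e-06). The erythroid list summed to 2.81 to 5.34 CPM in PD-1+ libraries and to 11.1 to 29.8 CPM in PD-1- libraries, with Gata1, its 1 tested gene, called lower (-3.63 ± 0.59, edgeR adjusted p = 0.000195). The NK list summed to 0.51 to 4.27 CPM in PD-1+ libraries and to 1.62 to 18.5 CPM in PD-1- libraries, and both tested genes, Ncr1 and Klrb1c, were called lower. The macrophage list summed to 30.4 to 51.3 CPM in PD-1+ libraries and to 27.5 to 67.6 CPM in PD-1- libraries, with Cd68 called lower among 4 tested, and 0 of the 5 neutrophil genes passed the filter. The part of any of these lists in the results below was not tested. CPM are counts scaled to a common library size, and in bulk RNA fewer cells of a type and less RNA per cell cannot be told apart.

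Over both ages, PD-1+ cells had more transcript of snRNP proteins such as Snrpd1, Snrnp25 and Snrnp27 and of the hnRNP gene Hnrnpa2b1, and less of the SR protein gene Srsf5, of Prpf39 and of the U2AF relative U2af1l4 than PD-1- cells. A gene is called where the adjusted p of the edgeR quasi-likelihood test (Benjamini-Hochberg over the 11490 genes tested) is below 0.05. By that rule 19 of the 74 rose (25.7%) and 11 fell (14.9%), against 21.9% and 19.6% of all genes tested. In either direction that is 40.5% of the members and 41.4% of all genes, so the family was called about as often as any gene. All PD-1+ libraries lay above all PD-1- libraries for 10 of the 74 members and below them for 10, against 17.2% and 17.5% of tested genes. Such separation, given for single genes below, was thus no more frequent among the members than among tested genes. The median log2 fold change was 0.21 for the members, against -0.01 for all genes tested, and 53 of the 74 were above 0. Scaling by library totals alone left 12 higher and 11 lower, against 1928 and 2804 of the 11490 genes tested. It moved the median to 0.05, against -0.17 for all genes. Fewer members, and fewer of all tested genes, were called higher without 5-day PD-1- replicate 2. Of the 19 higher and 11 lower calls, 12 and 6 held without each library in turn, and 12 and 5 held in every alternative tried.

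**Figure D1:**
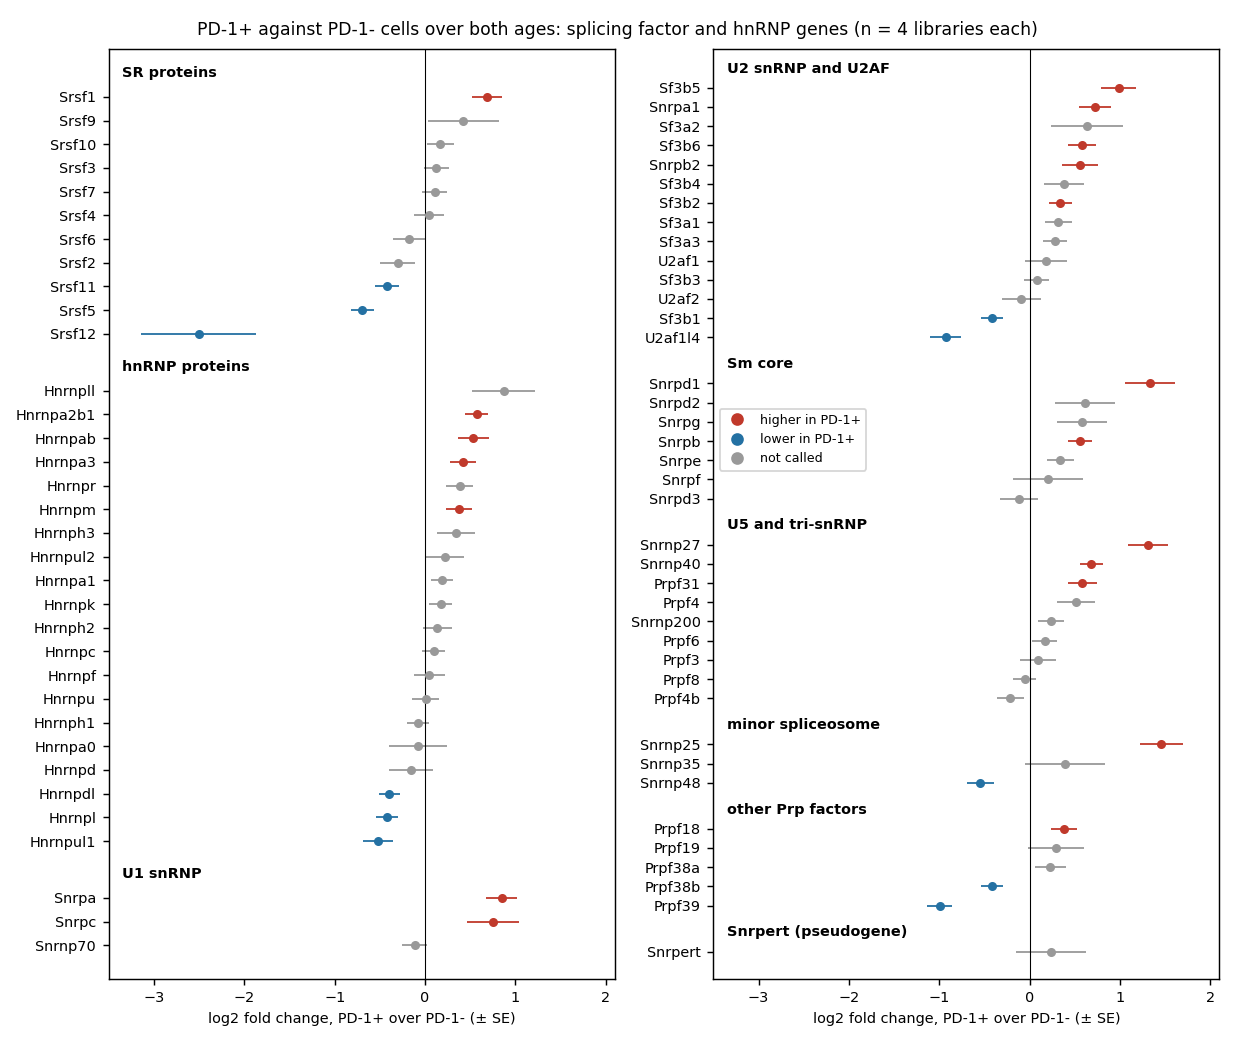
Log2 fold change of PD-1+ over PD-1- cells at both ages (x axis, bars ± SE, n = 4 libraries each) for the genes, 1 of the 74 not drawn, arranged by role and ordered by size. The called genes lie on both sides of 0 in the SR, hnRNP, U2, minor spliceosome and Prp groups, while in the U1, Sm and tri-snRNP groups calls lie to the right only.

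Among the 11 SR protein genes 1 was called higher and 3 lower in PD-1+ cells, under every scaling, with a median log2 fold change of 0.04 that turned to -0.04 with upper-quartile scaling and -0.12 with library totals. The counts per role over both ages in the main fit, here and below, stand against 21.9% higher and 19.6% lower among all tested genes. Those shares moved with the scaling too. Of the 11490 tested genes 2512 were higher and 2249 lower in the main fit. Upper-quartile scaling gave 2194 and 2602, and library totals 1928 and 2804. In the following values, libraries are given as replicates 2 and 3 at 5 days and 1 and 2 at 10 days, and ± after a log2 value is the SE of the fit to all 8 libraries. Srsf1 measured 122 and 108 CPM in 5-day PD-1+ cells, against 53.8 and 75.5 CPM in 5-day PD-1- cells, and 83.0 and 72.4 CPM in 10-day PD-1+ cells, against 58.9 and 48.1 CPM in 10-day PD-1- cells. Within each age the PD-1+ libraries were the higher ones, and Srsf1, the founding SR protein that binds exonic enhancers, rose by 0.68 ± 0.17 on the log2 scale (edgeR adjusted p = 0.00466). Srsf5 measured 208 and 247 CPM in 5-day PD-1+ cells, against 360.3 and 324 CPM in 5-day PD-1- cells, and 247 and 246 CPM in 10-day PD-1+ cells, against 457 and 402 CPM in 10-day PD-1- cells. All 4 PD-1+ libraries lay below all 4 PD-1- libraries for Srsf5, which fell by 0.70 ± 0.13 (edgeR adjusted p = 0.000491). Srsf11 measured 304 and 317 CPM in 5-day PD-1+ cells, against 379 and 368 CPM in 5-day PD-1- cells, and 214 and 275 CPM in 10-day PD-1+ cells, against 372 and 359.7 CPM in 10-day PD-1- cells. Srsf11, an SR-related protein, likewise did not overlap and fell by 0.42 ± 0.13 (edgeR adjusted p = 0.0178), a call lost without 10-day PD-1+ replicate 1 or without 10-day PD-1- replicate 1 (edgeR adjusted p = 0.0794 and 0.0549). Srsf12, chosen after its values were seen, was the largest drop among the 74 but the second least counted member, with 2, 5, 7 and 1 counts in PD-1+ libraries against 8, 13, 50 and 20 counts in PD-1- libraries (-2.51 ± 0.64, edgeR adjusted p = 0.00572).

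Srsf3 and Srsf7, the SR genes with the highest level per transcript length in PD-1+ cells, were not called over both ages. Srsf3, the smallest SR protein and an adaptor of mRNA export, differed by 0.12 ± 0.14 and its relative Srsf7 by 0.11 ± 0.14 (edgeR adjusted p = 0.507 and 0.582). Srsf3 measured 514 and 506 CPM in 5-day PD-1+ cells, against 379.8 and 394 CPM in 5-day PD-1- cells, and 490.1 and 431 CPM in 10-day PD-1+ cells, against 549.9 and 470.3 CPM in 10-day PD-1- cells. Srsf7 measured 460.1 and 372 CPM in 5-day PD-1+ cells, against 327 and 335 CPM in 5-day PD-1- cells, and 395 and 324 CPM in 10-day PD-1+ cells, against 388 and 392.2 CPM in 10-day PD-1- cells. In both genes the 5-day PD-1+ libraries lay above the 5-day PD-1- ones, while at 10 days the groups overlapped for both. Srsf2, the SC35 protein of nuclear speckles, differed by -0.30 ± 0.19 over both ages (edgeR adjusted p = 0.219). Srsf2 measured 150.3 and 104 CPM in 5-day PD-1+ cells, against 121 and 115 CPM in 5-day PD-1- cells, and 88.0 and 122 CPM in 10-day PD-1+ cells, against 183 and 159 CPM in 10-day PD-1- cells. Its groups separated at 10 days and overlapped at 5 days, and Mettl23 covers 15.6% of its exon length.

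Of the 20 hnRNP genes 4 were called higher and 3 lower in PD-1+ cells, though upper-quartile scaling left 2 and 3 and library totals 1 and 3. Hnrnpa2b1 measured 2585 and 2543 CPM in 5-day PD-1+ cells, against 1446 and 1708 CPM in 5-day PD-1- cells, and 1828 and 1651 CPM in 10-day PD-1+ cells, against 1341 and 1225 CPM in 10-day PD-1- cells. Hnrnpa2b1 (on chr6:51460932-51469894, GRCm38), which sorts and stabilises RNAs as well as repressing exons, was higher in PD-1+ libraries at each age and rose by 0.57 ± 0.13 (edgeR adjusted p = 0.00213). Hnrnpa3 measured 230.1 and 221 CPM in 5-day PD-1+ cells, against 131 and 153 CPM in 5-day PD-1- cells, and 135 and 129.7 CPM in 10-day PD-1+ cells, against 115 and 122 CPM in 10-day PD-1- cells. Hnrnpab measured 140.0 and 99.8 CPM in 5-day PD-1+ cells, against 67.4 and 74.4 CPM in 5-day PD-1- cells, and 72.3 and 83.6 CPM in 10-day PD-1+ cells, against 57.3 and 70.2 CPM in 10-day PD-1- cells. For Hnrnpa3, a close relative of Hnrnpa2b1, and Hnrnpab, a binder of AU-rich RNA whose exons share 29.1% of their length with Phykpl, the gap was wide at 5 days and narrow at 10 days. Hnrnpa3 rose by 0.42 ± 0.14 and Hnrnpab by 0.53 ± 0.17 (edgeR adjusted p = 0.0257 and 0.0225). Leaving out any one 5-day library ended the Hnrnpa3 call (edgeR adjusted p = 0.0703 to 0.105), and the Hnrnpab call was lost without 5-day PD-1+ replicate 2 or either 5-day PD-1- library (edgeR adjusted p = 0.0565 to 0.0953). The fourth gene called higher was Hnrnpm, which binds GU-rich RNA, at 0.37 ± 0.14 (edgeR adjusted p = 0.0444); with same-numbered libraries paired its adjusted p was 0.0885, and without a 5-day library it was 0.111 to 0.153.

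The 3 hnRNP genes that fell were Hnrnpl, Hnrnpdl and Hnrnpul1. Hnrnpl measured 127 and 129 CPM in 5-day PD-1+ cells, against 174 and 194 CPM in 5-day PD-1- cells, and 183 and 179 CPM in 10-day PD-1+ cells, against 221 and 234 CPM in 10-day PD-1- cells. Hnrnpl, which binds CA repeats and represses variable exons of CD45, was lower in PD-1+ libraries at each age and fell by 0.42 ± 0.12 (edgeR adjusted p = 0.0124), a call lost without either 5-day PD-1+ library (edgeR adjusted p = 0.0518 and 0.0556). Hnrnpdl measured 336 and 335 CPM in 5-day PD-1+ cells, against 438 and 474 CPM in 5-day PD-1- cells, and 360.1 and 339 CPM in 10-day PD-1+ cells, against 449 and 442 CPM in 10-day PD-1- cells. Hnrnpdl, a relative of hnRNP D, fell by 0.40 ± 0.12 with no overlap between PD-1+ and PD-1- libraries (edgeR adjusted p = 0.0134), and leaving out either 5-day PD-1+ library or 5-day PD-1- replicate 3 gave adjusted p of 0.0501 to 0.0597. Hnrnpul1 measured 64.8 and 58.2 CPM in 5-day PD-1+ cells, against 90.4 and 90.3 CPM in 5-day PD-1- cells, and 47.4 and 65.4 CPM in 10-day PD-1+ cells, against 69.9 and 88.5 CPM in 10-day PD-1- cells. The groups did not overlap for Hnrnpul1, a relative of hnRNP U with a role in DNA repair, which fell by 0.52 ± 0.17 (edgeR adjusted p = 0.0207). Its adjusted p passed 0.05 without 5-day PD-1+ replicate 3, 10-day PD-1+ replicate 1 or 10-day PD-1- replicate 2 (edgeR, 0.0686 to 0.0745).

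Hnrnpll, the hnRNP L relative that silences CD45 exons in activated and memory T cells, was not called in the main fit at 0.87 ± 0.35 (edgeR adjusted p = 0.0625). Hnrnpll measured 69.0 and 32.0 CPM in 5-day PD-1+ cells, against 31.4 and 14.8 CPM in 5-day PD-1- cells, and 31.7 and 47.4 CPM in 10-day PD-1+ cells, against 15.9 and 36.4 CPM in 10-day PD-1- cells. The same-numbered PD-1+ library was higher in 4 of 4 pairs, and with pairing the difference was 0.90 (edgeR adjusted p = 0.00699). Unpaired but with no filter on low counts, Hnrnpll was called as well (0.90, edgeR adjusted p = 0.00143). It was also called without 5-day PD-1+ replicate 3, 10-day PD-1+ replicate 1 or 10-day PD-1- replicate 2 (edgeR adjusted p = 0.0140 to 0.0423). Several abundant hnRNP genes were not called: Hnrnpa1 at 0.19 ± 0.12, the poly-C binder Hnrnpk at 0.17 ± 0.13, the poly-U binder Hnrnpc at 0.09 ± 0.13, Hnrnpu at 0.01 ± 0.15 and the G-run binder Hnrnph1 at -0.08 ± 0.12. Their edgeR adjusted p was 0.237, 0.294, 0.599, 0.971 and 0.648 in that order. Hnrnpk measured 1129 and 1175 CPM in 5-day PD-1+ cells, against 887 and 924 CPM in 5-day PD-1- cells, and 917 and 821 CPM in 10-day PD-1+ cells, against 939 and 795 CPM in 10-day PD-1- cells. Hnrnpa1 measured 327 and 318 CPM in 5-day PD-1+ cells, against 245 and 261 CPM in 5-day PD-1- cells, and 258 and 255 CPM in 10-day PD-1+ cells, against 254 and 249.8 CPM in 10-day PD-1- cells. For both genes the groups separated at 5 days, Hnrnpk overlapped at 10 days, and the 10-day PD-1+ values of Hnrnpa1 exceeded the PD-1- ones by less than the 5-day gap.

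Hnrnpc measured 380.3 and 322 CPM in 5-day PD-1+ cells, against 280.3 and 304 CPM in 5-day PD-1- cells, and 291 and 263 CPM in 10-day PD-1+ cells, against 301 and 282 CPM in 10-day PD-1- cells. Hnrnpu measured 270.2 and 191 CPM in 5-day PD-1+ cells, against 238 and 183 CPM in 5-day PD-1- cells, and 155 and 188 CPM in 10-day PD-1+ cells, against 182 and 189 CPM in 10-day PD-1- cells. Hnrnph1 measured 379 and 383 CPM in 5-day PD-1+ cells, against 366 and 386 CPM in 5-day PD-1- cells, and 439 and 366 CPM in 10-day PD-1+ cells, against 467 and 440.3 CPM in 10-day PD-1- cells. The PD-1+ libraries of Hnrnpc lay higher at 5 days, a difference that was not called (0.27, edgeR adjusted p = 0.182). Hnrnpu, a nuclear scaffold protein, overlapped at each age. Hnrnph1 overlapped at 5 days, and its lower 10-day PD-1+ levels were not called either (-0.17, edgeR adjusted p = 0.395).

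In the U1 snRNP 2 of 3 genes were called higher and 0 lower, or 1 and 0 under upper-quartile scaling or library totals. Snrpa measured 127 and 106 CPM in 5-day PD-1+ cells, against 52.8 and 60.8 CPM in 5-day PD-1- cells, and 63.8 and 65.4 CPM in 10-day PD-1+ cells, against 35.6 and 48.1 CPM in 10-day PD-1- cells. Snrpa, the U1-A protein that binds a loop of U1 RNA, rose by 0.85 ± 0.17 (edgeR adjusted p = 0.00120), with the PD-1+ libraries higher at each age. The U1-C gene Snrpc, also picked with its values in view, showed 0.76 ± 0.29 (edgeR adjusted p = 0.0469) and its adjusted p was 0.0545 with pairing; 6 of the 8 fits without a library also ended its call (edgeR adjusted p = 0.0619 to 0.154). Snrnp70 measured 216 and 184 CPM in 5-day PD-1+ cells, against 191 and 191 CPM in 5-day PD-1- cells, and 142 and 157 CPM in 10-day PD-1+ cells, against 159 and 210.1 CPM in 10-day PD-1- cells. Snrnp70, the third protein of the particle, overlapped between the groups at 5 days, lay lower in PD-1+ cells at 10 days and was not called (-0.11 ± 0.14, edgeR adjusted p = 0.549).

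In the U2 snRNP and U2AF 5 of 14 genes were called higher and 2 lower, or 3 and 2 under upper-quartile scaling or library totals. Sf3b5 measured 110.1 and 126 CPM in 5-day PD-1+ cells, against 47.0 and 71.0 CPM in 5-day PD-1- cells, and 76.2 and 67.1 CPM in 10-day PD-1+ cells, against 28.5 and 46.8 CPM in 10-day PD-1- cells. Sf3b5, a small subunit of the SF3b complex that holds the branch point, rose by 0.99 ± 0.19 (edgeR adjusted p = 0.000873). Snrpa1 measured 195 and 139.9 CPM in 5-day PD-1+ cells, against 102 and 78.9 CPM in 5-day PD-1- cells, and 92.6 and 77.3 CPM in 10-day PD-1+ cells, against 48.3 and 69.6 CPM in 10-day PD-1- cells. Sf3b6 measured 156 and 136 CPM in 5-day PD-1+ cells, against 95.3 and 97.1 CPM in 5-day PD-1- cells, and 114 and 88.2 CPM in 10-day PD-1+ cells, against 58.0 and 80.004 CPM in 10-day PD-1- cells. Snrpa1, the U2-A′ protein, rose by 0.72 ± 0.18, and Sf3b6, the SF3b subunit that touches the branch adenosine, by 0.58 ± 0.15 (edgeR adjusted p = 0.00467 and 0.00713). For all 3 genes each PD-1+ library exceeded the PD-1- libraries of its age. The other 2 called higher, chosen after their values were seen, were Snrpb2 at 0.55 ± 0.20 and Sf3b2 at 0.34 ± 0.13 (edgeR adjusted p = 0.0383 and 0.0455), and both calls were lost with pairing (edgeR adjusted p = 0.0561 and 0.0848) and in 6 of the 8 fits without a library.

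Sf3b1, the large SF3b subunit recurrently mutated in myelodysplastic syndromes, moved the opposite way from its small partners. Sf3b1 measured 1117 and 1224 CPM in 5-day PD-1+ cells, against 1429 and 1452 CPM in 5-day PD-1- cells, and 1084 and 1084 CPM in 10-day PD-1+ cells, against 1567 and 1579.9 CPM in 10-day PD-1- cells. All PD-1+ libraries lay below all PD-1- libraries, and Sf3b1 fell by 0.42 ± 0.12 (edgeR adjusted p = 0.0111), which missed the threshold only without both male 5-day libraries (edgeR adjusted p = 0.0547). U2af1l4 measured 39.6 and 34.4 CPM in 5-day PD-1+ cells, against 61.9 and 61.9 CPM in 5-day PD-1- cells, and 34.2 and 40.8 CPM in 10-day PD-1+ cells, against 80.6 and 81.3 CPM in 10-day PD-1- cells. U2af1l4, a relative of the U2AF small subunit, fell by 0.93 ± 0.17 with no overlap (edgeR adjusted p = 0.000601). Gm49396, a gene model on the same strand, covers 65.6% of the exon length of U2af1l4, so reads may be assigned to either or to neither.

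The U2AF subunits themselves and Sf3a1 were not called. U2af1 measured 47.9 and 43.0 CPM in 5-day PD-1+ cells, against 31.1 and 32.9 CPM in 5-day PD-1- cells, and 25.3 and 23.5 CPM in 10-day PD-1+ cells, against 21.4 and 34.5 CPM in 10-day PD-1- cells. U2af2 measured 36.0 and 31.5 CPM in 5-day PD-1+ cells, against 32.1 and 27.3 CPM in 5-day PD-1- cells, and 24.9 and 24.2 CPM in 10-day PD-1+ cells, against 26.9 and 37.1 CPM in 10-day PD-1- cells. U2af1, which reads the last bases of the intron, differed by 0.18 ± 0.23 and U2af2, which binds the polypyrimidine tract, by -0.09 ± 0.22 (edgeR adjusted p = 0.564 and 0.774). Sf3a1 measured 146 and 170.0 CPM in 5-day PD-1+ cells, against 107 and 140.3 CPM in 5-day PD-1- cells, and 124 and 156 CPM in 10-day PD-1+ cells, against 130.2 and 101.5 CPM in 10-day PD-1- cells. The SF3a subunit Sf3a1 was at 0.32 ± 0.15 (edgeR adjusted p = 0.105), and its groups overlapped at 10 days.

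The Sm core had 2 of 7 genes called higher and 0 lower, with a median log2 fold change of 0.56, and the same counts under every scaling. Snrpd1 measured 92.6 and 75.0 CPM in 5-day PD-1+ cells, against 24.95 and 40.9 CPM in 5-day PD-1- cells, and 31.7 and 32.0 CPM in 10-day PD-1+ cells, against 7.12 and 20.8 CPM in 10-day PD-1- cells. Snrpd1 rose by 1.33 ± 0.28 (edgeR adjusted p = 0.00144), and each PD-1+ library exceeded both PD-1- libraries of its age. Snrpb measured 689 and 619.7 CPM in 5-day PD-1+ cells, against 403 and 389.5 CPM in 5-day PD-1- cells, and 481 and 448 CPM in 10-day PD-1+ cells, against 306 and 404 CPM in 10-day PD-1- cells. Snrpb, which encodes SmB/B′, rose by 0.56 ± 0.13 (edgeR adjusted p = 0.00409). Snrpe measured 112 and 106 CPM in 5-day PD-1+ cells, against 77.4 and 84.0 CPM in 5-day PD-1- cells, and 57.3 and 56.2 CPM in 10-day PD-1+ cells, against 48.6 and 47.5 CPM in 10-day PD-1- cells. For Snrpe the groups separated at each age, yet the difference of 0.34 ± 0.15 was not called (edgeR adjusted p = 0.0816), and reads of its processed copies may be shared. The other Sm genes ranged from -0.12 ± 0.21 for Snrpd3 to 0.62 ± 0.33 for Snrpd2, none of them called.

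Among the U5 and tri-snRNP genes 3 of 9 were called higher and 0 lower, under every scaling. Snrnp27 measured 53.0 and 55.4 CPM in 5-day PD-1+ cells, against 24.6 and 26.1 CPM in 5-day PD-1- cells, and 45.6 and 42.5 CPM in 10-day PD-1+ cells, against 11.7 and 19.5 CPM in 10-day PD-1- cells. Snrnp27, a small tri-snRNP protein, rose by 1.31 ± 0.22 (edgeR adjusted p = 0.000249) with the smallest p of its role group. Snrnp40 measured 217 and 198 CPM in 5-day PD-1+ cells, against 122 and 127 CPM in 5-day PD-1- cells, and 155 and 149 CPM in 10-day PD-1+ cells, against 102 and 95.6 CPM in 10-day PD-1- cells. Prpf31 measured 134 and 102 CPM in 5-day PD-1+ cells, against 71.6 and 64.2 CPM in 5-day PD-1- cells, and 85.8 and 84.7 CPM in 10-day PD-1+ cells, against 66.4 and 65.0 CPM in 10-day PD-1- cells. Snrnp40, a WD-repeat protein of U5, rose by 0.68 ± 0.12, and Prpf31, the U4/U6 protein mutated in a form of retinitis pigmentosa, by 0.58 ± 0.16 (edgeR adjusted p = 0.000510 and 0.00882). In these 3 genes the PD-1+ libraries were the higher ones at each age. An opposite-strand gene model covers 18.1% of the exon length of Prpf31 and the strand setting of the counts is not known.

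The large catalytic components Prpf8 and Snrnp200 were not called. Prpf8 measured 186 and 207 CPM in 5-day PD-1+ cells, against 198 and 195 CPM in 5-day PD-1- cells, and 141 and 166 CPM in 10-day PD-1+ cells, against 177 and 153 CPM in 10-day PD-1- cells. Snrnp200 measured 237 and 222 CPM in 5-day PD-1+ cells, against 169 and 174 CPM in 5-day PD-1- cells, and 193 and 144 CPM in 10-day PD-1+ cells, against 169 and 155 CPM in 10-day PD-1- cells. Prpf8, the scaffold of the active site, differed by -0.05 ± 0.13, and Snrnp200, the helicase that unwinds U4 from U6, by 0.24 ± 0.14 (edgeR adjusted p = 0.762 and 0.192). Prpf8 overlapped between the groups at each age, while Snrnp200 overlapped at 10 days only.

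Of the 3 minor spliceosome genes 1 rose and 1 fell. Snrnp25 measured 67.9 and 57.3 CPM in 5-day PD-1+ cells, against 20.4 and 22.1 CPM in 5-day PD-1- cells, and 34.2 and 38.3 CPM in 10-day PD-1+ cells, against 9.72 and 20.2 CPM in 10-day PD-1- cells. Snrnp25, a U11 protein, rose by 1.46 ± 0.24 (edgeR adjusted p = 0.000195), the largest called rise among the 74 genes. Snrnp48 measured 52.5 and 62.1 CPM in 5-day PD-1+ cells, against 83.9 and 82.3 CPM in 5-day PD-1- cells, and 65.2 and 70.6 CPM in 10-day PD-1+ cells, against 93.9 and 107 CPM in 10-day PD-1- cells. Snrnp48, also a U11 protein, fell by 0.55 ± 0.15 with no overlap between PD-1+ and PD-1- libraries (edgeR adjusted p = 0.00853). The third, Snrnp35, had 100 counts in all and was not called.

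Of the 6 other Prp genes 1 was called higher and 2 lower, or 0 and 2 under upper-quartile scaling or library totals. Prpf39 measured 88.5 and 66.4 CPM in 5-day PD-1+ cells, against 135 and 154 CPM in 5-day PD-1- cells, and 85.5 and 91.0 CPM in 10-day PD-1+ cells, against 187 and 189 CPM in 10-day PD-1- cells. Prpf39, a U1-associated protein, fell by 1.00 ± 0.14, the smallest p of all 74 genes (edgeR adjusted p = 5.90e-05), and each PD-1+ library lay below every PD-1- library. Prpf38b measured 169.8 and 195 CPM in 5-day PD-1+ cells, against 257 and 229 CPM in 5-day PD-1- cells, and 168 and 176 CPM in 10-day PD-1+ cells, against 229.9 and 230.3 CPM in 10-day PD-1- cells. Prpf38b fell by 0.42 ± 0.12 (edgeR adjusted p = 0.0122), a call lost without 5-day PD-1+ replicate 2 (edgeR adjusted p = 0.0585). Prpf18 measured 92.1 and 109 CPM in 5-day PD-1+ cells, against 84.6 and 84.6 CPM in 5-day PD-1- cells, and 151 and 132 CPM in 10-day PD-1+ cells, against 109 and 89.8 CPM in 10-day PD-1- cells. Prpf18, a factor of the second catalytic step, was at 0.38 ± 0.14 (edgeR adjusted p = 0.0460), and 7 of the 8 fits without a library ended that call (edgeR adjusted p = 0.0623 to 0.134), as did pairing (0.0667). Prpf19 measured 14.9 and 10.5 CPM in 5-day PD-1+ cells, against 9.07 and 10.8 CPM in 5-day PD-1- cells, and 12.5 and 10.2 CPM in 10-day PD-1+ cells, against 9.72 and 9.76 CPM in 10-day PD-1- cells. Prpf19, the ubiquitin ligase of the Prp19 complex, had 207 counts in all and was not called (0.29 ± 0.31, edgeR adjusted p = 0.483).

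**Figure D2:**
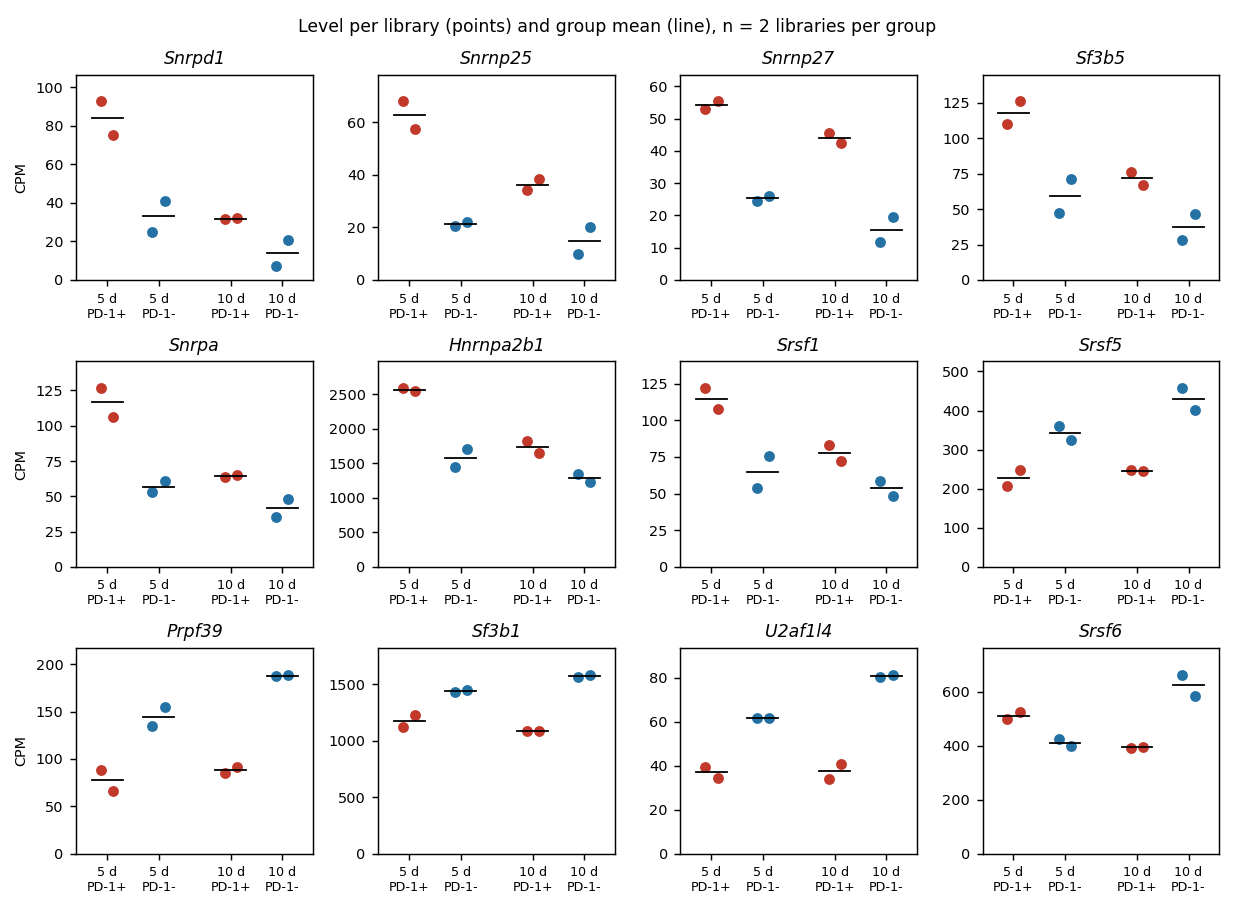
Level in each library (points, CPM, y axis from 0) and group mean (line) for 12 of the genes, with the 5-day pair of groups left of the 10-day pair and PD-1+ left of PD-1- in each (n = 2 libraries per group). Snrpd1, Snrnp25, Snrnp27, Sf3b5, Snrpa, Hnrnpa2b1 and Srsf1 are higher and Srsf5, Prpf39, Sf3b1 and U2af1l4 lower in PD-1+ cells at both ages, and Srsf6 is lower in PD-1+ cells at 10 days only.

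Promoter windows of 300 bases, from 250 before to 50 after the gene start, were available for 63 of the 74 genes (RefSeq, GRCm38.p6). The windows below belong to 2 genes that rose and 2 that fell in PD-1+ cells without losing their call in any alternative tried, and are shown so that the motif counts can be read against actual sequence. Capitals mark matches on either strand to CACGTG (the E-box bound by Myc), CCGGAAGT (bound by ETS factors) or CCAAT (bound by NF-Y).
Snrnp25, higher in PD-1+ cells, chr11:32205165-32205464, plus strand: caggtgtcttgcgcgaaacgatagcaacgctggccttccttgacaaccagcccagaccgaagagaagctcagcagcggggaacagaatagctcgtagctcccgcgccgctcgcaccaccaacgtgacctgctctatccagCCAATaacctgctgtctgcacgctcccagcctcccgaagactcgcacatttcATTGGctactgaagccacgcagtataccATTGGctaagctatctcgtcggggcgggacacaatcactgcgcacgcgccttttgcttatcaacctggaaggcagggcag
Snrnp27, higher in PD-1+ cells, chr6:86684442-86684741, minus strand: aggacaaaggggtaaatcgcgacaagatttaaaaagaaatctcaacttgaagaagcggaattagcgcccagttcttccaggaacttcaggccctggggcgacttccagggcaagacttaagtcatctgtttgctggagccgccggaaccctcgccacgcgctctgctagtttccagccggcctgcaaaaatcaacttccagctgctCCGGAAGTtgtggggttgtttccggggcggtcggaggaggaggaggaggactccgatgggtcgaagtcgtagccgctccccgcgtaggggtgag
Prpf39, lower in PD-1+ cells, chr12:65036084-65036383, plus strand: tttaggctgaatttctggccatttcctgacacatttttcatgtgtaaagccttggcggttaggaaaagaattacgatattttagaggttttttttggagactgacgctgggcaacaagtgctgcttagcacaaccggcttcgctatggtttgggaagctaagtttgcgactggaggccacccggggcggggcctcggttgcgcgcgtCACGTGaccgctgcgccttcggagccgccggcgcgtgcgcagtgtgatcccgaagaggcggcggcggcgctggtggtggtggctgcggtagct
U2af1l4, lower in PD-1+ cells, chr7:30563090-30563389, plus strand: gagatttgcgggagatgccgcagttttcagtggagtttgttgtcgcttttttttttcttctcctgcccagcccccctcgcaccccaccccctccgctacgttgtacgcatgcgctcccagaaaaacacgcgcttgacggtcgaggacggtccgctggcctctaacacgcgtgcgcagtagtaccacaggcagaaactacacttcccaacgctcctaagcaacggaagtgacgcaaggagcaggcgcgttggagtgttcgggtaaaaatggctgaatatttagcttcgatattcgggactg
The Snrnp25 window holds CCAAT matches, that of Snrnp27 an ETS-type match and that of Prpf39 an E-box, while the U2af1l4 window holds none of these letters.

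Across the windows, the E-box was present in 12.7% of the 63 members, against 12.2% of 8355 tested genes and 8.1% of all 27025 genes with a window. The ETS-type motif was present in 19.0% of members, against 10.3% of tested and 4.3% of all genes. CCAAT was found in 46.0% of members, against 43.4% and 41.1%, the GC box GGGCGG in 71.4%, against 69.2% and 38.2%, and TATAAA in 11.1%, against 8.3% and 15.7%. None of these motifs contains another, and a match describes the sequence, not a bound site. The transcripts of members that rose were shorter, with a median length of 1654 bases for 19 genes, against 2939 bases for the 11 that fell and 2463 bases for those not called. Among all tested genes the same medians were 2521, 3475 and 2858 bases. Across the 74 genes the Spearman correlation of the log2 fold change with length was -0.35, and across 11292 tested genes -0.14, given as a description since genes are not independent replicates.

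Per kilobase of transcript, Hnrnpa2b1 had the highest level of the 74 genes at 1295 CPM per kb in PD-1+ cells, against 860.5 CPM per kb in PD-1- cells. Snrpb followed at 482 CPM per kb in PD-1+ cells, against 324 CPM per kb in PD-1- cells, then Hnrnpk at 378 CPM per kb in PD-1+ cells, against 331 CPM per kb in PD-1- cells. Sf3b1 was at 182 CPM per kb in PD-1+ cells, against 243 CPM per kb in PD-1- cells and Srsf5 at 151 CPM per kb in PD-1+ cells, against 246 CPM per kb in PD-1- cells. Hnrnpm was at 185 CPM per kb in PD-1+ cells, against 139 CPM per kb in PD-1- cells and Srsf3 at 185 CPM per kb in PD-1+ cells, against 171 CPM per kb in PD-1- cells. These levels are given as a description, since reads from oligo(dT)-primed cDNA need not scale with transcript length.

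The question of whether the PD-1 difference depends on age was asked at each age and by the difference between them. At 5 days 19 of 74 genes rose (25.7%) and 6 fell (8.11%) in PD-1+ cells, 33.8% in all, against 17.6% higher, 16.7% lower and 34.3% in all among tested genes. At 10 days 10 rose and 10 fell (13.5% each, 27% in all), against 16.4% higher, 12.9% lower and 29.3% in all. The member medians were 0.35 at 5 days and 0.06 at 10 days, against -0.03 and 0.01 for all tested genes. Libraries of the groups did not overlap for 44 of the 74 members higher and 12 lower at 5 days, against 33.6% and 35.1% of tested genes, and for 30 higher and 21 lower at 10 days, against 33.5% and 31.3%. Upper-quartile scaling and library totals gave 16 higher and 9 lower and 14 and 10 at 5 days, and 6 and 13 in both cases at 10 days, where they turned the member median to -0.03 and -0.02. All 11490 tested genes gave 1796 higher and 2141 lower and 1442 and 2634 at 5 days. At 10 days they gave 1660 and 1759 and 1660 and 1732. At 5 days fewer members were called higher without PD-1+ replicate 2 or PD-1- replicate 2, and far fewer lower without any one 5-day library. At 10 days far fewer were called higher, and fewer lower, without PD-1+ replicate 1 or PD-1- replicate 1. In each of these fits fewer of all tested genes were called as well.

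Across the ages, 7 genes were called higher at both, 4 lower at both and 0 in opposite directions. The share of all tested genes called at both ages, or at 1 age alone, was not counted, so these counts have no background. The log2 fold changes at the 2 ages had a Pearson correlation of 0.76 across the 74 members, against 0.73 across all 11490 tested genes. The 7 were Snrpd1, Snrnp25, Snrnp27, Snrnp40, Sf3b5, Snrpa and Hnrnpa2b1, and the 4 were Srsf5, Prpf39, Prpf38b and U2af1l4. Few of the calls at a single age were stable: 8 of 19 higher and 1 of 6 lower calls at 5 days, and 1 of 10 higher and 5 of 10 lower calls at 10 days, held without each library in turn. Of the genes called at both ages, Snrnp27 and Prpf39 held without each library at both. Prpf38b lost its call in 8 of 8 such fits at each age, Snrpa in 5 of 8 at 10 days, U2af1l4 in 4 of 8 at 5 days, and Snrpd1 in 3 of 8 at 10 days and 2 of 8 at 5 days. The other 5 genes each lost the call in 1 or 2 of 8 fits at 1 or both ages. A further 12 were called higher at 5 days alone, 3 higher at 10 days alone, 2 lower at 5 days alone and 6 lower at 10 days alone. Being called at 1 age and not at the other does not show a difference between the ages, which was tested for each gene directly. The 5-day calls included Hnrnpm (0.68 ± 0.13, edgeR adjusted p = 0.000706), Hnrnpr (0.71 ± 0.17), Snrpb (0.72 ± 0.15) and Srsf1 (0.84 ± 0.22). With pairing Hnrnpk (0.35), Hnrnpll (1.12) and Snrnp200 (0.42) were called at 5 days as well (edgeR adjusted p = 0.0329, 0.00559 and 0.0430), and Sf3b6 (0.57) and Snrpb (0.40) at 10 days (edgeR adjusted p = 0.0484 and 0.0405). These calls also came without pairing. At 5 days RLE scaling called Hnrnpk and Snrnp200 (edgeR adjusted p = 0.0417 and 0.0499). With no filter on low counts Hnrnpll was called at 5 days, and Sf3b6 and Snrpb at 10 days (edgeR adjusted p = 0.00614, 0.0334 and 0.0401).

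At 10 days 0 of the 11 SR protein genes were called higher and 5 lower, against 16.4% higher and 12.9% lower among tested genes. The counts for the 11 genes were the same under every scaling. The 5 were Srsf5 (-0.80 ± 0.15), Srsf6 (-0.66 ± 0.14), Srsf2 (-0.71 ± 0.20), Srsf11 (-0.58 ± 0.15) and Srsf12 (-3.33 ± 0.79). Their edgeR adjusted p was 0.000651, 0.00142, 0.0149, 0.00782 and 0.00404 in that order, and Srsf2, Srsf11 and Srsf12 lost the call without 1 or more of the 10-day libraries. At 5 days 2 of the 11, Srsf1 and Srsf3, were called higher and 1, Srsf5, lower, against 17.6% higher and 16.7% lower among tested genes. Summed over the 11 genes, SR protein transcripts reached 2499 and 2411 CPM in 5-day PD-1+ cells, against 2213 and 2220.2 CPM in 5-day PD-1- cells, and 2071 and 2030.1 CPM in 10-day PD-1+ cells, against 2853 and 2598 CPM in 10-day PD-1- cells. The 10-day PD-1+ libraries thus had the lowest and the 10-day PD-1- libraries the highest of the 4 sums, while at 5 days the order was the opposite. At 10 days 2 of the 20 hnRNP genes were called higher and 0 lower, against 16.4% and 12.9% of tested genes. Under upper-quartile scaling or library totals the hnRNP counts were 0 and 3. All 11490 tested genes then gave 1660 higher in both cases, and 1759 or 1732 lower. For the 20 hnRNP genes the sum reached 7506 and 7262 CPM in 5-day PD-1+ cells, against 5375 and 5791 CPM in 5-day PD-1- cells, and 5730.2 and 5360.4 CPM in 10-day PD-1+ cells, against 5382 and 5133 CPM in 10-day PD-1- cells. For the 7 Sm genes it reached 1000.0 and 903 CPM in 5-day PD-1+ cells, against 583 and 605 CPM in 5-day PD-1- cells, and 634 and 603 CPM in 10-day PD-1+ cells, against 410.0 and 543 CPM in 10-day PD-1- cells. Both of these sums were greatest in 5-day PD-1+ cells, and both rest largely on a few abundant genes. In 5-day PD-1+ replicate 2, Snrpb gave 689 of the 1000.0 CPM of the Sm sum. In the same library Hnrnpa2b1 gave 2585 of the 7506 CPM of the hnRNP sum.

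The test of the difference itself called 1 of 74 genes, Srsf6, as lower and 0 as higher, against 0.923% lower, 1.2% higher and 2.12% in all among tested genes. At an unadjusted edgeR p of 0.05, 9 members passed, and the share of all tested genes passing that looser threshold was not counted. Srsf6 measured 499.8 and 525 CPM in 5-day PD-1+ cells, against 424 and 400.3 CPM in 5-day PD-1- cells, and 393 and 396 CPM in 10-day PD-1+ cells, against 663 and 585 CPM in 10-day PD-1- cells. Srsf6 (SRp55, on chr2:162931528-162937121, GRCm38) is an SR protein that binds exonic enhancers. It was higher in PD-1+ libraries at 5 days (0.31 ± 0.14, edgeR adjusted p = 0.0854, not called) and lower at 10 days (-0.66 ± 0.14, edgeR adjusted p = 0.00142), with no overlap between the groups at either age. The 10-day minus 5-day difference was -0.98 ± 0.19 (edgeR adjusted p = 0.0138). It was not called without 5-day PD-1+ replicate 3 (-0.97, edgeR adjusted p = 0.0556), without 10-day PD-1- replicate 1 (-0.88, edgeR adjusted p = 0.0713) or without both male libraries (-0.93, edgeR adjusted p = 0.117). The sign of this difference was negative in 59 of the 74 genes, against 47.3% of all tested genes, with a member median of -0.24. DESeq2 called 3 members lower and 0 higher in the same comparison, and the paired edgeR fit 2 and 0. More of all genes were called there as well. DESeq2 called 168 lower and 142 higher of 8147 genes, and the paired fit 220 and 263 of 11490. The main fit called 106 and 138.

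**Figure D3:**
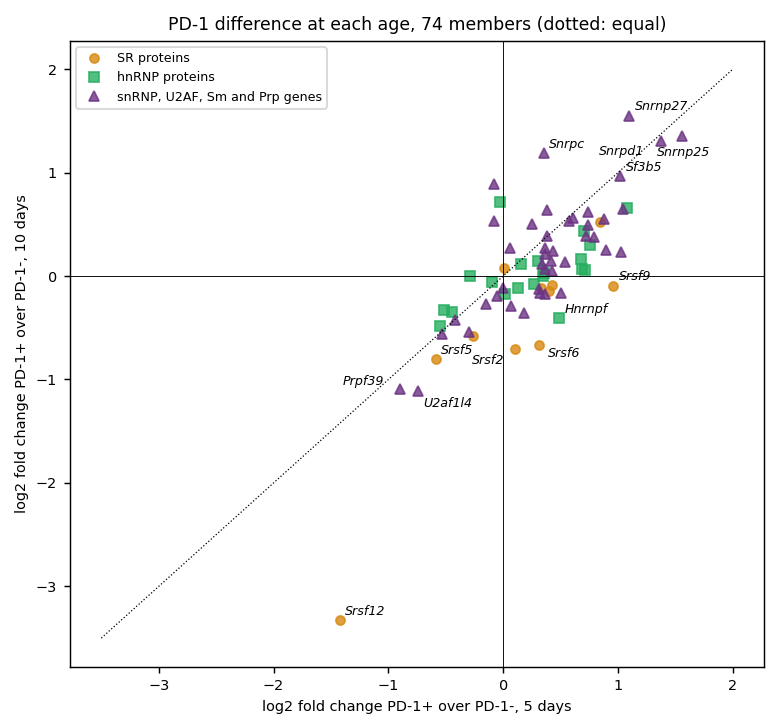
Log2 fold change of PD-1+ over PD-1- cells at 5 days (x axis) and at 10 days (y axis) for each of the 74 genes, marked by role, with the dotted line where both are equal (n = 2 libraries per group). There are 59 genes below the dotted line, and 17, Srsf6, Srsf2 and Hnrnpf among them, lie right of 0 at 5 days and below 0 at 10 days.

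With age, 12 of these transcripts, 5 of them of hnRNP genes and 3 of Sm genes, fell in PD-1+ cells and 1 rose. In 10-day against 5-day PD-1+ cells 1 of 74 genes was called higher (1.35%) and 12 lower (16.2%), 17.6% in all, against 7.39% higher, 6.98% lower and 14.4% in all among tested genes. The member median was -0.37, against 0.05 for all tested genes, and 60 of the 74 genes (81.1%) were below 0, against 47.3% of tested genes. Libraries did not overlap for 7 of the 74 members higher and 50 lower, against 31.3% and 27.2% of tested genes. Under library totals 2 members were higher and 7 lower, against 1393 and 449 of 11490 tested genes. The medians were then -0.18 for members and 0.24 for all genes. Far fewer members were called lower without 5-day PD-1+ replicate 2 or without 10-day PD-1+ replicate 2. Fewer of all tested genes were called lower in these fits as well. The member medians were then -0.37 and -0.34, against 0.04 and 0.03 for all genes. Of the 12 lower calls 3, Hnrnpm, Hnrnpf and Hnrnpa3, held in every alternative tried. The proliferation list moved alongside, with 0 of 15 called higher and 11 lower (median -0.96), and its part in this result was not tested. These groups also differ in sex makeup, with 1 male 5-day library.

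Hnrnpm measured 938 and 882 CPM in 5-day PD-1+ cells, against 542 and 592 CPM in 5-day PD-1- cells, and 539.6 and 556 CPM in 10-day PD-1+ cells, against 527 and 519 CPM in 10-day PD-1- cells. Its 10-day PD-1+ libraries lay below the 5-day PD-1+ ones, and Hnrnpm fell by 0.73 ± 0.13 with age in PD-1+ cells (edgeR adjusted p = 0.00135). March2, on the same strand, covers 14.7% of the exon length of Hnrnpm, so some reads may be assigned to either or to neither. Hnrnpf measured 190.4 and 179 CPM in 5-day PD-1+ cells, against 129.9 and 133 CPM in 5-day PD-1- cells, and 103 and 93.5 CPM in 10-day PD-1+ cells, against 126 and 135 CPM in 10-day PD-1- cells. Hnrnpf, a binder of G-runs, fell by 0.91 ± 0.16 with age in PD-1+ cells (edgeR adjusted p = 0.00142), and its 10-day PD-1+ libraries were the lowest of all 8. Opposite-strand gene models cover 13.5% and 13% of its exon length. Hnrnpa3 fell by 0.77 ± 0.16 and Snrpe by 0.93 ± 0.20 (edgeR adjusted p = 0.00408 and 0.00522), the Snrpe call being lost without 5-day PD-1+ replicate 2 (edgeR adjusted p = 0.0550). Further lower calls were Snrpd1 (-1.39 ± 0.36), Snrpa1 (-0.98 ± 0.23), Snrpa (-0.85 ± 0.22), Srsf10 (-0.63 ± 0.18), Hnrnpa2b1 (-0.56 ± 0.13), Snrpb (-0.49 ± 0.15) and Hnrnpk (-0.41 ± 0.13), with edgeR adjusted p of 0.00860 for Snrpa1 and 0.0494 for Hnrnpk. Each of these 7 lost its call without 5-day PD-1+ replicate 2 and without 10-day PD-1+ replicate 2. Hnrnpl was the 1 member called higher (0.50 ± 0.15, edgeR adjusted p = 0.0395), and 5 of the 8 fits without a library ended that call (edgeR adjusted p = 0.0511 to 0.242). This comparison shares its libraries with the PD-1 comparisons above, so the genes it has in common with them are not independent evidence.

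In 10-day against 5-day PD-1- cells edgeR called 0 of 74 genes in either direction, against 0.27% of all tested genes. At an unadjusted edgeR p of 0.05, 16 members passed, and the share of all tested genes passing that looser threshold was not counted. DESeq2 called 1 higher and 0 lower of the 61 members it gave an adjusted p, against 28 and 46 of 6315 genes. The member median was -0.08, with 49 of 74 genes below 0, and libraries did not overlap for 15 of the 74 members higher and 25 lower, against 19.2% and 20.7% of tested genes. By role, the SR genes had a median of 0.33 in PD-1- cells and the Sm genes one of -0.58, against -0.28 and -0.71 in PD-1+ cells. A count of 0 does not show that these transcripts were the same at the 2 ages.

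**Figure D4:**
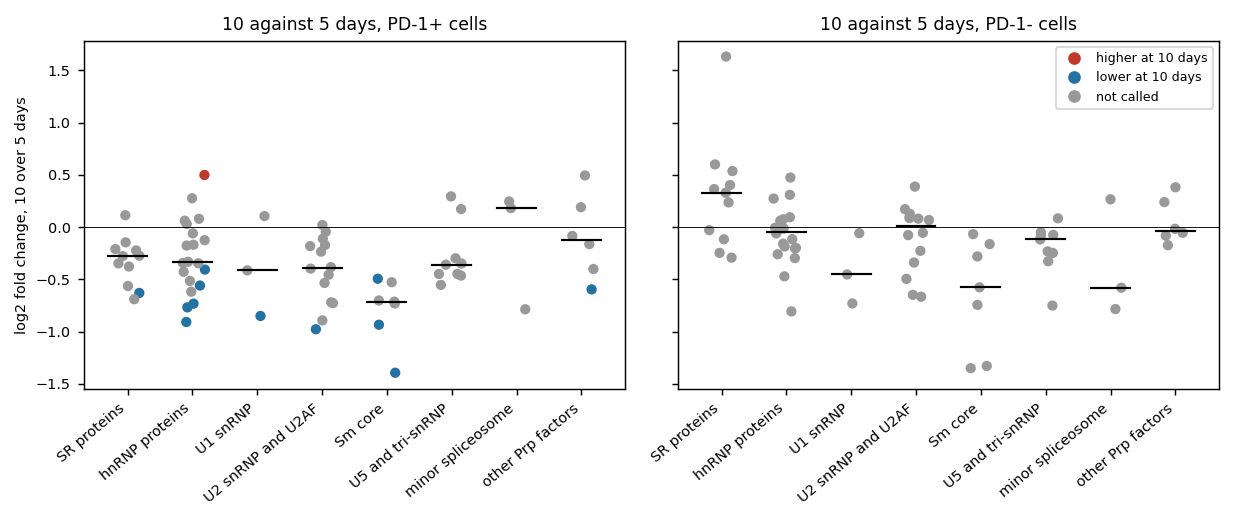
Log2 fold change of 10-day over 5-day cells (y axis) by role (x axis) in PD-1+ cells (left) and PD-1- cells (right), with 1 point per gene, a line at the role's median and n = 2 libraries per group; Snrpert is not drawn. In PD-1+ cells most points lie below 0 and 13 are called, and in PD-1- cells none is called and 7 of the 11 SR genes lie above 0.

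Genes that act beside these factors were read from further lists, whose counts in the main fit stand against 21.9% higher and 19.6% lower among all tested genes and were not tested as sets. For the other scalings the background is 2194 higher and 2602 lower of 11490 tested genes (upper-quartile) and 1928 and 2804 (library totals). Of 7 kinases that phosphorylate SR proteins 0 were called higher and 4 lower in PD-1+ cells, with a median of -0.67, and 6 were lower under upper-quartile or total scaling. Srpk1, the cytoplasmic kinase that sends SR proteins to the nucleus, was at 187 ± 38.3 CPM in PD-1+ cells, against 431 ± 43.2 CPM in PD-1- cells (mean ± SD, n = 4 libraries each), a log2 fold change of -1.22 ± 0.16 (edgeR adjusted p = 2.16e-05). Clk1, a nuclear kinase that releases them from speckles, was at 711 ± 174 CPM in PD-1+ cells, against 1408 ± 163 CPM in PD-1- cells (log2 fold change -1.01 ± 0.14, edgeR adjusted p = 4.47e-05). Srpk2 (-0.75 ± 0.14) and Clk4 (-0.45 ± 0.14) fell too. Among 39 other splicing regulators 5 were called higher and 13 lower (median -0.23), and 0 and 17 under library totals. Acin1, an exon junction accessory protein, fell by 1.12 ± 0.15 and Rbm5, a regulator of apoptotic exons, by 0.83 ± 0.13 (edgeR adjusted p = 2.84e-05 and 0.000153).

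Of 7 LSm genes, whose ring binds U6 RNA, 3 were called higher and 0 lower (median 0.58), or 2 and 0 under upper-quartile scaling or library totals, led by Lsm8 (0.98 ± 0.18, edgeR adjusted p = 0.000479) and Lsm2 (1.17 ± 0.21, edgeR adjusted p = 0.000532). Of the 12 tested of 13 genes of the SMN complex and snRNP assembly, which load the Sm ring, 5 were called higher and 1 lower (median 0.54), though 2 and 2 under library totals. Strap rose by 0.62 ± 0.14 and Gemin7 by 0.65 ± 0.19, while Gemin5, which recognises the snRNA, fell by 0.65 ± 0.24 (edgeR adjusted p = 0.00284, 0.0119 and 0.0412). With age in PD-1+ cells 0 of these 12 were called higher and 4 lower, against 7.39% and 6.98% of tested genes.

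The Prp19-related list had 4 higher and 3 lower of 11 (median 0.11, or -0.04 under library totals), with Isy1 (0.81 ± 0.14) and Cwc15 (0.68 ± 0.14) at its smallest p (edgeR adjusted p = 0.000363 and 0.00113). The spliceosomal helicases and GTPase had 2 higher and 2 lower of 10 (median 0.02, or -0.06 and -0.13 under upper-quartile scaling and library totals), among them Ddx46 (-0.51 ± 0.13), which remodels U2, and the U5 GTPase Eftud2 (0.55 ± 0.16), with edgeR adjusted p of 0.00681 and 0.0122. Of 13 genes of the exon junction complex and nonsense-mediated decay 3 were higher and 2 lower (median -0.09). Smg1, the kinase that starts decay, was at 183 ± 17.5 CPM in PD-1+ cells, against 402 ± 10.3 CPM in PD-1- cells (log2 fold change -1.14 ± 0.12, edgeR adjusted p = 3.74e-06), and Eif4a3, the junction helicase, at 339 ± 90.7 CPM in PD-1+ cells, against 200.4 ± 11.0 CPM in PD-1- cells (log2 fold change 0.72 ± 0.14, edgeR adjusted p = 0.000880). Of 9 mRNA export genes 2 were higher and 1 lower (median 0.33), among which Nxt1, the cofactor of the export receptor, rose by 1.09 ± 0.19 and Nxf1, the receptor, fell by 0.51 ± 0.12 (edgeR adjusted p = 0.000414 and 0.00379).

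**Figure D5:**
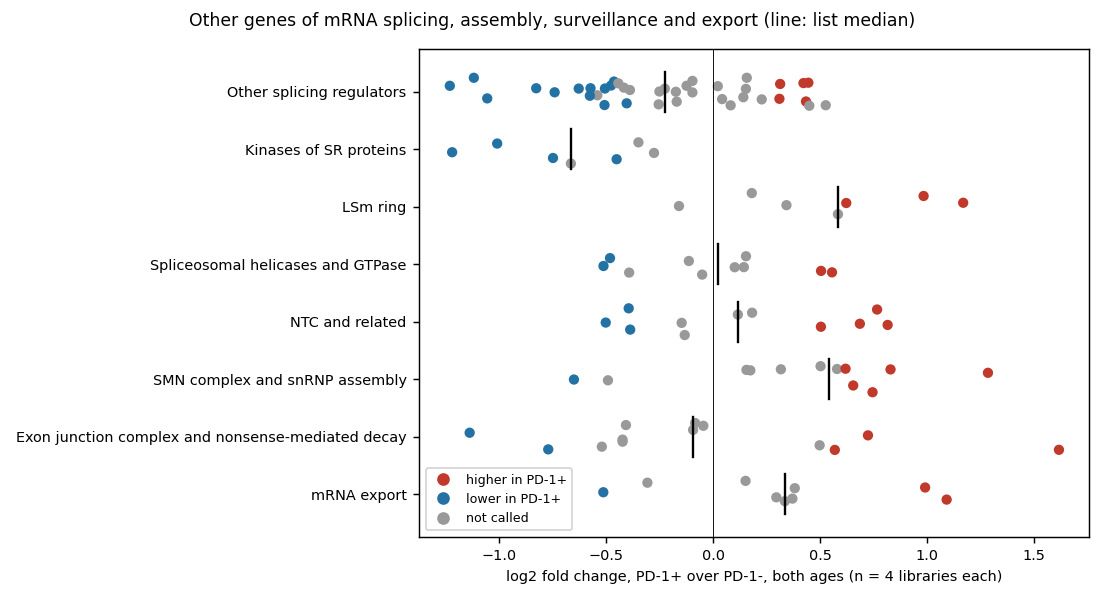
Log2 fold change of PD-1+ over PD-1- cells at both ages (x axis, n = 4 libraries each) for the tested genes of 8 related lists (rows), 1 point per gene with a line at each median. The kinases of SR proteins lie wholly left of 0 and the LSm and SMN lists mostly right of it.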

How the data were processed

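RNA from 8 libraries of sorted liver CD4+ T cells was analysed. The authors deposited 1 table of raw counts per gene symbol, and per the submitters' processing notes reads were handled with STAR 2.5.4 and featureCounts on mm10. The annotation, the strand setting and the treatment of multi-mapping reads are not stated in any source used, so close copies and overlapping genes may share counts. The columns were matched to samples by title. The counts were tested in R 4.3.3 with edgeR 4.0.16 (limma 3.58.1): filterByExpr over the 4 groups kept 11490 of 52997 symbols, TMM factors set the scale, and p-values of robust quasi-likelihood F tests were adjusted across every gene tested (Benjamini-Hochberg). The PD-1 difference over both ages comes from a model with age and PD-1 as additive terms, and a 4-group model, with 4 residual degrees of freedom, the other comparisons. SE is the absolute log2 fold change over the square root of F. CPM are counts over the summed counts of tested genes times the TMM factor. Transcript lengths and coordinates are from GENCODE M21 on GRCm38 and use 1 representative transcript per gene. The procedure was tested on simulated data in which few genes changed, as many up as down. Here 41.4% of tested genes were called over both ages, so that simulation does not show how often calls are wrong in these data.

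The members and lists were chosen with earlier results of these data known. Genes given in full were up to 3 called higher and 3 called lower per role whose mean log2 CPM was 5 or more, up to 4 called by age or by the difference between ages, and a fixed set; members outside it are named with their values known, and 1 member is counted but not reported here by name. The 2 called genes with the smallest p were named for each further list. Same-numbered libraries of an age deviated together (correlation 0.23 at 5 days and 0.27 at 10 days over 5599 genes). At 5 days they also matched in sex, while at 10 days all libraries were female, so sex cannot show pairing there. A fit with age and number as a block was therefore an alternative. That the numbers pair the samples comes from these data, not from the labels. Replicates of a group differed beyond counting error (chi-square per degree of freedom 3.86 to 8.90). Other alternatives were RLE, upper-quartile or no scaling factors, no filter, DESeq2 1.42.0, only the 2 groups compared, and leaving out each library or both male ones.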

Additional observations from a re-analysis of the deposited data

Results flagged for a closer look

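Srsf6 was the 1 gene of the 74 for which the test of the PD-1 difference between the ages gave a call. The 10-day minus 5-day difference in log2 fold change was -0.98 ± 0.19 (edgeR quasi-likelihood test, edgeR adjusted p = 0.0138), with 10-day PD-1+ libraries below the 10-day PD-1- ones and 5-day PD-1+ libraries above the 5-day PD-1- ones. The range over the alternatives tried was -1.07 to -0.84, with edgeR or DESeq2 adjusted p of 0.000484 to 0.117.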

How the results depend on the processing

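For the members called in any comparison 0 changed sign under any alternative tried, and 12 of 19 higher and 5 of 11 lower calls over both ages held in all of them. Counts of called members moved by over 1.5 times as follows, and where the setting does not show the cause it was not tested. The counts for all tested genes moved between settings too, so these changes are not particular to the members. RLE scaling gave 2 lower for the difference between ages. Upper-quartile scaling gave 6 higher at 10 days. With library totals only, counts were 12 higher over both ages, 10 lower at 5 days, 6 higher at 10 days, and 2 higher and 7 lower with age in PD-1+ cells. Without a filter they were 7 lower over both ages, 3 lower at 5 days, and 1 higher and 1 lower with age in PD-1- cells. Fits of only the 2 groups compared gave 6 higher at 10 days. DESeq2 gave 6 higher at 10 days, 0 higher with age in PD-1+ cells, 1 higher with age in PD-1- cells and 3 lower for the difference between ages. Without both male 5-day libraries, counts were 6 lower over both ages, 1 lower at 5 days, 0 higher with age in PD-1+ cells and 0 lower for the difference between ages.

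With the replicate block the difference between ages had 2 lower, and the PD-1 counts were 16 higher and 11 lower over both ages, 22 and 6 at 5 days and 12 and 10 at 10 days. All 11490 tested genes gave 263 higher and 220 lower for the difference between ages. For PD-1 they gave 2339 and 2060 over both ages, 2194 and 1964 at 5 days and 1983 and 1580 at 10 days. Among members called without it or given in full, the calls it changed stand beside them and it changed no other. A block is an age and a number, so the age comparisons could not be fitted with it. Leaving out 1 library gave 12 to 18 higher and 8 to 11 lower over both ages, 11 to 21 and 1 to 5 at 5 days, 3 to 10 and 5 to 9 at 10 days, 0 to 1 and 3 to 14 with age in PD-1+ cells, 0 and 0 with age in PD-1- cells, and 0 and 0 to 1 for the difference between ages. Library totals shifted the median of all genes to -0.17 over both ages, -0.26 at 5 days and 0.24 with age in PD-1+ cells, so directions are relative to those medians. Low counts limit Srsf12, Snrnp35, Sf3a2, Prpf19 and Snrpert most.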
